A study of Mus musculus with 5 samples.

Results

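The 10 genes described here encode the enzymes that make long-chain fatty acids from citrate and then elongate and desaturate them: Acly, Acaca, Fasn, Scd1, Scd2, Elovl1, Elovl5, Elovl6, Fads1 and Fads2. They were chosen by gene symbol, with every probe that the platform annotation assigns to them, and take up 13 of the 25697 probes and 10 of the 16593 named genes on the array. Elovl1 has 4 probes and each of the other genes has 1. All 13 probes passed the detection filter, but Fasn passed it through control arrays alone and is described separately.

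The cells were mouse embryonic fibroblasts (MEFs) of the C57BL/6 strain null for Dicer, which processes microRNA precursors, and this loss and the Lipofectamine transfection are shared by all groups. They were transfected with siTARBP2-1 or siTARBP2-2, small interfering RNAs (siRNAs) against TARBP2, an RNA-binding protein that partners Dicer, with 1 array for each, or with control siRNA, with 3 arrays named siControl-1 to siControl-3. Total RNA taken 48 hours later was hybridised to Illumina BeadChips. The sample labels, followed here, give MEFs and siControl, whereas the series' own design text has metastatic cells and a mock-transfected control. Nothing in the labels says that the arrays came from separate cultures, so the p-values measure only the spread between these arrays, which may be technical.

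Cytosolic fatty acid synthesis starts when ATP citrate lyase (Acly) splits citrate into acetyl-CoA, which acetyl-CoA carboxylase (Acaca) turns into malonyl-CoA and fatty acid synthase (Fasn) builds into palmitate. Palmitate is elongated in the endoplasmic reticulum, where Elovl6 acts on palmitate itself, Elovl1 on saturated and monounsaturated very long chains and Elovl5 on polyunsaturated chains, and stearoyl-CoA desaturases (Scd1, Scd2) place the first double bond. Fads2 and Fads1 desaturate essential fatty acids on the way to arachidonate. Many of these genes are known targets of the sterol regulatory element-binding proteins (SREBPs), transcription factors released from the endoplasmic reticulum membrane when sterols are low.

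Promoter windows of 300 bases from RefSeq (GRCm38.p6) are shown for Elovl6, Fads2 and Elovl5, which were lower on both TARBP2 siRNA arrays than on any control array. Each window runs 5′ to 3′ from 250 bases before the start. Capitals mark the NF-Y box CCAAT, the Sp1 box GGGCGG and the E-box CACGTG, on either strand. Of the 10 genes, 7 had an entry, with 8 windows in all; Scd1, Scd2 and Fads1 had none.
Elovl6 (chr3:129532136-129532435, plus strand): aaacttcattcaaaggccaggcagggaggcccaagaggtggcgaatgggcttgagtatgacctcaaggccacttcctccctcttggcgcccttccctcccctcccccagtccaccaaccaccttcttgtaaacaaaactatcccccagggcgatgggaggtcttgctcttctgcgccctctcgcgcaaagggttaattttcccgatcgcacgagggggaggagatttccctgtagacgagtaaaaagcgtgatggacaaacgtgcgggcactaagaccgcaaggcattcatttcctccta
Fads2 (chr19:10101454-10101753, minus strand): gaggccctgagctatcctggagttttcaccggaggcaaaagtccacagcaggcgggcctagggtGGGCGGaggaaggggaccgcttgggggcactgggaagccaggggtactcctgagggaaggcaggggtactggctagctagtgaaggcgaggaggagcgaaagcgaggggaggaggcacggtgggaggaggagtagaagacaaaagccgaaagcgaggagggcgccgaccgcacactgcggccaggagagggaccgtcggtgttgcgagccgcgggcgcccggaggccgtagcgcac
Elovl5 (chr9:77917115-77917414, plus strand): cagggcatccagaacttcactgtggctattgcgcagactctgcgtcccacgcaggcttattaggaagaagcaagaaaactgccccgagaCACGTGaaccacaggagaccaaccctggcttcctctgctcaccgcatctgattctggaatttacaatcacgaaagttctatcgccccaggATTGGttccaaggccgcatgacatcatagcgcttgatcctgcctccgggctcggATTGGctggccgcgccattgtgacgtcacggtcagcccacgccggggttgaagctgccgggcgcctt
The Elovl5 window holds 1 E-box and 2 CCAAT boxes, the Fads2 window 1 GGGCGG box, and the Elovl6 window none of the motifs searched. Among the windows not shown, Acly has 1 CCAAT and 4 GGGCGG boxes, Fasn 3 CCAAT boxes and Acaca none of the motifs. Of the Elovl1 windows, 1 has 1 CCAAT and 5 GGGCGG boxes and the other 2 GGGCGG boxes. Over all 32851 windows of this length in the table, 7.15% hold CACGTG, 37.4% CCAAT and 35.7% GGGCGG. The sterol regulatory element, searched as TCACNCCAC (in 1.24% of all windows) and in a longer form (0.524%), occurred in 0 of the 8 windows, which says only that these letters are not in these 300 bases. Among the genes without an entry, Fads1 is the direct neighbour of Fads2 among the protein-coding genes of chromosome 19, and 1 gene, Scd4, lies between Scd1 and Scd2 on the same chromosome (RefSeq, GRCm38.p6).

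Signals were background corrected, quantile normalized and taken to log2, and all log2 values below are on that scale. Median raw signals ran from 79.5 to 79.9 on the TARBP2 siRNA arrays and from 79.0 to 81.9 on the control arrays. These medians lie near background and do not compare bright probes. The bright Acly probe had a raw signal of 5433 with siTARBP2-1, against 5866 to 6220 on the control arrays. After normalization its log2 signal was 12.53, against 12.44 to 12.53. Raw signals given below are not adjusted for such differences between arrays. Between 12445 and 13051 probes were detected on each array, where the siTARBP2-2 count rests on detection p-values rebuilt from the other 4 arrays. The targeted gene was lower on both TARBP2 siRNA arrays: Tarbp2 (probe ILMN_2939990) was at 28.7% of control with siTARBP2-1 and at 20.4% with siTARBP2-2. Its other probe (ILMN_2649955) was at 37.6% and 20.9%, higher with siTARBP2-1 than with siTARBP2-2 by 0.85 on the log2 scale (limma, adjusted p = 0.0212), while the first probe's difference of 0.49 did not pass (adjusted p = 0.103). Of the fibroblast markers, 14 of 17 on the array were kept, among them Col1a1, Pdgfra and Vim, and 3 (Lum, Postn, Thy1) were not. All 17 fibroblast markers on the array together summed to 19831 and 19376 with the TARBP2 siRNAs, against 18585 to 19468 on the control arrays. Of the 14 kept, 3 were called lower with siTARBP2-1 and 1 with siTARBP2-2, where 3.78% and 2.52% of all genes tested were called lower. Of the adipocyte markers, 1 of 10 was kept (Lpl), and Adipoq, Fabp4 and Plin1 were not above background; the summed adipocyte signal was 251 and 246 with the TARBP2 siRNAs, against 252 to 275 on the control arrays. Epithelial, leukocyte and endothelial marker lists had 4 of 8, 2 of 8 and 1 of 9 genes kept. The epithelial list summed to 224 with siTARBP2-1 and 277 with siTARBP2-2, against 216 to 234 on the control arrays. The leukocyte list summed to 347 with siTARBP2-1 and 486 with siTARBP2-2, against 411 to 422 on the control arrays. The endothelial list summed to 327 and 269, against 249 to 255. Its 1 kept gene, Egfl7, was called higher with siTARBP2-1, where 3.88% of all genes tested were called higher. The part of these lists in the results was not tested.

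Elovl6 and Scd2 were lower on both TARBP2 siRNA arrays than on any control array, and each siRNA's array passed the test against the controls for both genes. Scd1 and Fads2 passed with siTARBP2-2 and were closer to control with siTARBP2-1. No member rose. Each siRNA has 1 array, whose spread is taken from the control arrays, so an effect of the siRNA and a deviation of its array cannot be told apart, here or in the differences between siRNAs below. In the comparison of both siRNAs as 1 group against control, none of the 10 genes passed. The 2 arrays of that group are different siRNAs and not replicates of 1 siRNA. Its spread therefore includes any difference between the siRNAs. Limma called 2 of the 10 genes lower with siTARBP2-1, where 3.78% of the 8927 genes tested were called lower, and 4 of the 10 lower with siTARBP2-2, where the share over all genes was 2.52%; calls have an adjusted p under 0.05 after Benjamini-Hochberg adjustment over all 13123 probes tested. Over both siRNAs as 1 group (2 arrays against 3), limma called 0 of the 10 genes, and 1 of the 8927 genes tested (0.0112%). That 1 gene was Tarbp2 itself, with a log2 change of -2.05 for probe ILMN_2939990 (limma, adjusted p = 0.0412). Its other probe, ILMN_2649955, had -1.84 and did not pass (limma, adjusted p = 0.103). With a change of that size missed, 0 calls over both siRNAs do not show that the 10 genes were unchanged. At an unadjusted p under 0.05 limma gave 4 of the 10 lower over both siRNAs, where the share over all genes was 6.03%. At that unadjusted limit 5 of the 10 were lower with siTARBP2-1 and 6 with siTARBP2-2, where the shares over all genes were 12.3% and 11.4%. Fewer fibroblasts and less RNA of these genes per cell cannot be told apart in bulk samples. The median log2 change of the 10 genes was -0.25 over both siRNAs, -0.23 with siTARBP2-1 and -0.38 with siTARBP2-2, beside medians over all genes of 0.00060, -0.0092 and 0.016. Both TARBP2 siRNA arrays were below all 3 control arrays for Scd2, Elovl5, Elovl6 and Fads2, and for 15.1% of all genes tested. Fasn was also lower on both, but was not detected on either and is not counted with them. The 2 comparisons with control use the same 3 control arrays.

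**Figure D1:**
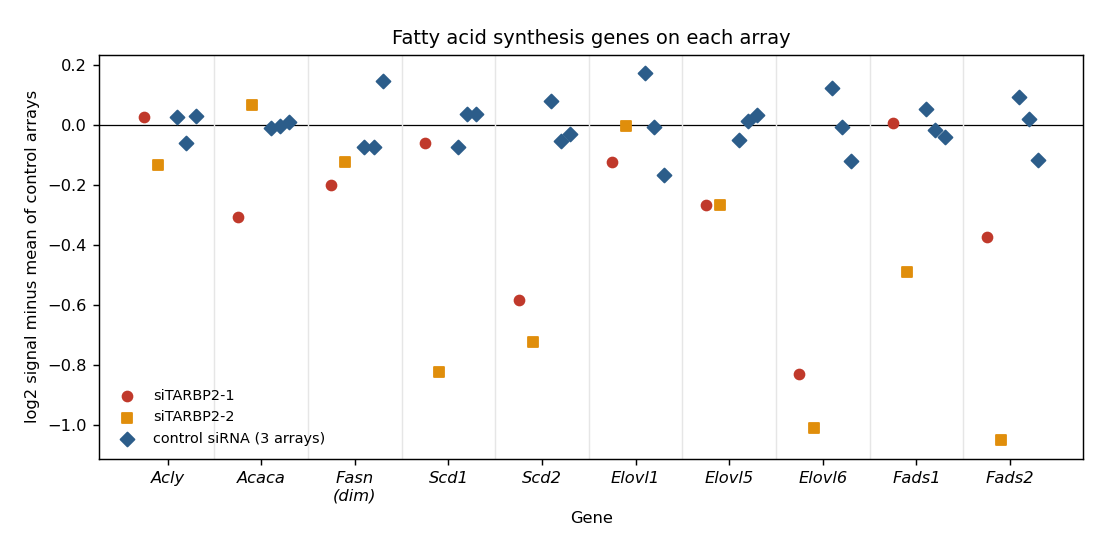
Normalized log2 signal of the 10 genes on each array, minus the mean of the control arrays (y axis), with siTARBP2-1 as circles, siTARBP2-2 as squares and the 3 control arrays as diamonds. Elovl6 and Scd2 lie between -0.58 and -1.01 on both TARBP2 siRNA arrays, while Scd1 lies at -0.82 and Fads1 at -0.49 with siTARBP2-2 and near 0 with siTARBP2-1.

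Elovl6, the elongase that takes palmitate to stearate, had the largest change of the 10 genes with siTARBP2-1. Its probe ILMN_2614752 had log2 signals of 8.95 with siTARBP2-1 and 8.77 with siTARBP2-2, against 9.90, 9.77 and 9.66 on the control arrays. The groups did not overlap, and the gap was larger than the control range of 0.25. Before normalization the signals were 501 and 504 with the TARBP2 siRNAs, against 1062, 957 and 828 on the control arrays. Elovl6 fell to 56.2% of control with siTARBP2-1 (log2 change -0.83, SE 0.13; limma, adjusted p = 0.0157) and to 49.7% with siTARBP2-2 (-1.01, SE 0.13; limma, adjusted p = 0.0183). Over both siRNAs the log2 change was -0.92 (SE 0.12, n = 2 and 3; limma, adjusted p = 0.106), which did not pass. The siRNAs differed by 0.18 on the log2 scale, siTARBP2-1 minus siTARBP2-2, with a 95% interval of -0.20 to 0.56 (limma, adjusted p = 0.539). Both calls ended without siControl-2, with log2 changes of -0.83 and -1.01 (limma, adjusted p = 0.0602 for siTARBP2-1 and 0.0769 for siTARBP2-2), and the siTARBP2-2 call with no filter on dim probes (0.0518).

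Elovl5, which lengthens polyunsaturated chains, was lower on both TARBP2 siRNA arrays than on any control array but passed no test. Its raw signals were 4118 and 4784 with the TARBP2 siRNAs, against 5513, 5769 and 5495 on the control arrays. On the log2 scale its changes were -0.26 with siTARBP2-1 (95% interval -0.53 to -0.0018; limma, adjusted p = 0.205) and -0.27 with siTARBP2-2 (-0.53 to -0.0035; adjusted p = 0.22). The siRNAs thus left Elovl5 at 83.3% and 83.2% of control, with a difference between them of 0.0017 (95% interval -0.32 to 0.32).

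Elovl1, the elongase of saturated and monounsaturated very long chains, did not pass in any comparison. Its brightest probe, ILMN_3143506, had log2 signals of 11.23 and 11.35 with the TARBP2 siRNAs, against 11.53, 11.35 and 11.19 on the control arrays, so the groups overlapped. Over both siRNAs the 4 probes had log2 changes of -0.06, -0.09, -0.10 and -0.14, all within a 95% interval that includes 0. The control arrays spanned 0.34 for the brightest probe, more than its change. For ILMN_1224780 the groups did not overlap, with a control range of 0.08 and a change of -0.10.

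Scd2, the stearoyl-CoA desaturase isoform known from brain and embryonic tissue of the mouse, was lower on both TARBP2 siRNA arrays. Its log2 signals were 9.68 with siTARBP2-1 and 9.53 with siTARBP2-2, against 10.34, 10.21 and 10.23 on the control arrays. The groups did not overlap, and neither did the raw signals, at 784 and 819 with the TARBP2 siRNAs, against 1415, 1278 and 1209 on the control arrays. Scd2 fell to 66.8% of control with siTARBP2-1 (log2 change -0.58, SE 0.12; limma, adjusted p = 0.032) and to 60.6% with siTARBP2-2 (-0.72, SE 0.12; limma, adjusted p = 0.0276). Over both siRNAs the change was -0.65 (SE 0.11; limma, adjusted p = 0.131). The siRNAs differed by 0.14, with a 95% interval of -0.20 to 0.48 (limma, adjusted p = 0.583). Without siControl-2 both calls ended (limma, adjusted p = 0.0938 for siTARBP2-1 and 0.101 for siTARBP2-2); the siTARBP2-1 call also ended without siControl-3 (0.0576) and the siTARBP2-2 call with no filter (0.0556).

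Scd1, the main liver and adipose isoform of the same desaturase in the mouse, was lower on the siTARBP2-2 array alone. Its log2 signals were 11.46 with siTARBP2-1 and 10.69 with siTARBP2-2, against 11.44, 11.55 and 11.55 on the control arrays. The siTARBP2-1 array lay within the control range and the siTARBP2-2 array below it. Raw signals were 2622 with siTARBP2-1 and 1765 with siTARBP2-2, against 2949, 3152 and 2964 on the control arrays. With siTARBP2-2 Scd1 fell to 56.5% of control (log2 change -0.82, SE 0.11; limma, adjusted p = 0.0212), and with siTARBP2-1 it was at 96.0% (-0.06, 95% interval -0.33 to 0.21; adjusted p = 0.793). The difference between the siRNAs, siTARBP2-1 minus siTARBP2-2, was 0.76 (SE 0.14, 95% interval 0.43 to 1.10; limma, adjusted p = 0.0254), in a comparison where 3.72% of all genes were called higher with siTARBP2-1 and 2 of the 10 genes were. Without siControl-2 the call against control (limma, adjusted p = 0.0906) and the call between the siRNAs (0.0729) ended, and with median scaling over all probes, an alternative chosen after seeing the data, the difference between siRNAs was 0.60 (adjusted p = 0.0511). Scd1 and Scd2 are paralogs; whether their probes hybridise to each other's transcripts was not tested.

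**Figure D2:**
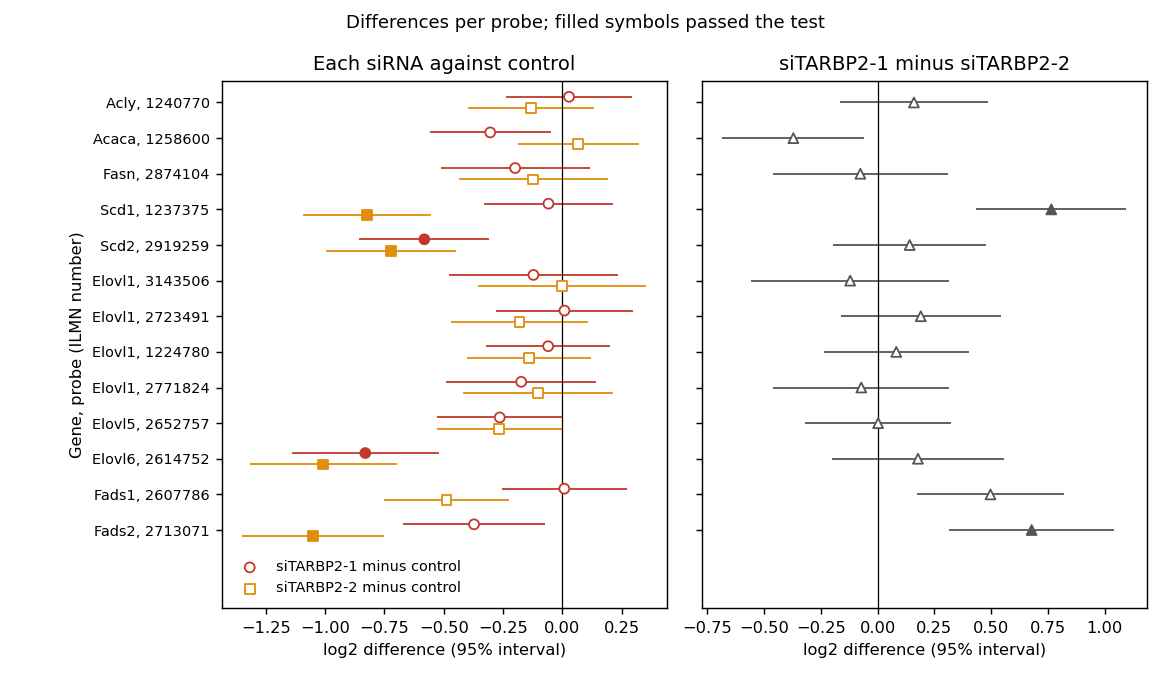
Log2 differences with 95% intervals for all 13 probes, for siTARBP2-1 (circles) and siTARBP2-2 (squares) minus control on the left and for siTARBP2-1 minus siTARBP2-2 (triangles) on the right; filled symbols have an adjusted p under 0.05. On the right the Scd1 and Fads2 differences, 0.76 and 0.68, are the filled ones, and that of Elovl6, at 0.18, has an interval across 0.

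Fads2, the delta-6 desaturase that takes the first step from linoleate towards arachidonate, was lower on both TARBP2 siRNA arrays and passed with siTARBP2-2. Its log2 signals were 6.89 with siTARBP2-1 and 6.21 with siTARBP2-2, against 7.36, 7.28 and 7.15 on the control arrays. The groups did not overlap. The probe is dim, with raw signals of 162 and 127.1 with the TARBP2 siRNAs, against 225.5, 214 and 187 on the control arrays, and was detected on 5 of 5 arrays. Fads2 fell to 48.3% of control with siTARBP2-2 (log2 change -1.05, SE 0.13; limma, adjusted p = 0.015), and the change was -0.70 with no background correction. With siTARBP2-1 it was at 77.2% (-0.37, 95% interval -0.67 to -0.07; limma, adjusted p = 0.132). The difference between the siRNAs was 0.68 (SE 0.15, 95% interval 0.31 to 1.04; limma, adjusted p = 0.049). Without siControl-2 the siTARBP2-2 call (limma, adjusted p = 0.0659) and the difference (0.112) did not pass, and the difference also did not with no filter (0.0773) or with median scaling over all probes (0.0932).

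Fads1, the delta-5 desaturase that yields arachidonate and the neighbour of Fads2, showed the same order of the siRNAs at a smaller size and missed the threshold. Its log2 signals were 12.63 with siTARBP2-1 and 12.13 with siTARBP2-2, against 12.67, 12.61 and 12.58 on the control arrays. The siTARBP2-1 array lay inside the control range and the siTARBP2-2 array below it. The change was -0.49 with siTARBP2-2 (SE 0.11; limma, adjusted p = 0.0623), and 0.01 with siTARBP2-1 (95% interval -0.26 to 0.27; adjusted p = 0.978). The difference between siRNAs was 0.50 (95% interval 0.17 to 0.82; limma, adjusted p = 0.0796) and passed in 4 of 13 other settings, with adjusted p-values from 0.00714 to 0.269. The siTARBP2-2 change passed in 7 of 14 other settings, with adjusted p-values from 0.00361 to 0.181.

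**Figure D3:**
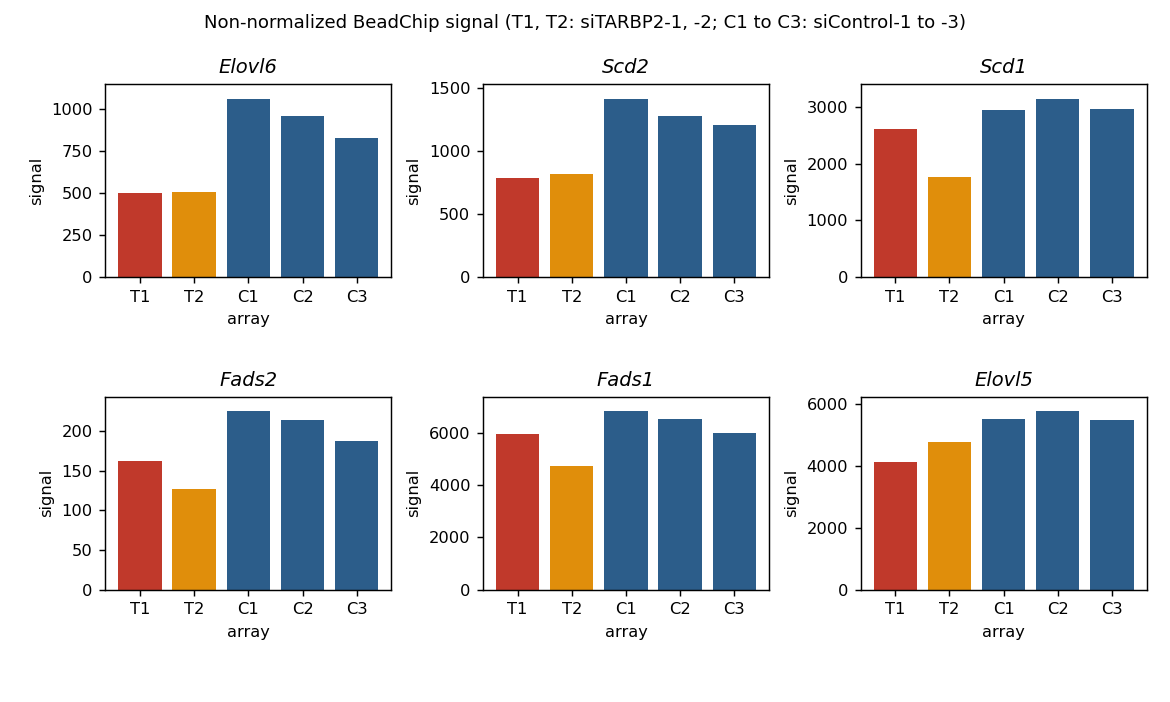
Non-normalized signal (y axis, linear, from 0) of 6 genes on the siTARBP2-1, siTARBP2-2 and 3 control arrays, 1 bar per array. Elovl6 stands at 501 and 504 on the TARBP2 siRNA arrays, against 828 to 1062 on the control arrays, and Scd1 at 2622 and 1765, against 2949 to 3152. Differences in scale between arrays are not removed from these values.

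The enzymes of the palmitate pathway itself did not pass in any comparison. Acaca, whose malonyl-CoA is the building block for Fasn and for every elongase, had log2 signals of 10.46 with siTARBP2-1 and 10.84 with siTARBP2-2, against 10.76, 10.77 and 10.78 on the control arrays. The TARBP2 siRNA arrays lay on opposite sides of a control range of only 0.02. The Acaca change was -0.30 with siTARBP2-1 (95% interval -0.56 to -0.05; limma, adjusted p = 0.146) and 0.07 with siTARBP2-2 (-0.19 to 0.32; adjusted p = 0.755), and the difference of -0.37 between them did not pass (adjusted p = 0.14). The siTARBP2-1 change passed in 2 of 14 other settings, with no background correction (limma, adjusted p = 0.0481) and with an intensity trend (0.0487). Acly, which supplies cytosolic acetyl-CoA, had 12.53 and 12.37 with the TARBP2 siRNAs, against 12.53, 12.44 and 12.53 on the control arrays. Its changes were 0.03 with siTARBP2-1 (95% interval -0.24 to 0.29) and -0.13 with siTARBP2-2 (-0.40 to 0.13). Fasn, the synthase, could hardly be measured: the raw signal of its probe was 76.7 and 79.1 with the TARBP2 siRNAs, against 79.5, 82.4 and 85.9 on the control arrays. It was not well above background on either TARBP2 siRNA array and was detected on 2 of the 3 control arrays. The normalized log2 means were 4.78 with the TARBP2 siRNAs and 4.94 on the control arrays. Over both siRNAs the change was -0.16, with a 95% interval of -0.44 to 0.12 (limma, adjusted p = 0.627), and did not pass. Fasn was the 1 member that passed the detection filter through control arrays alone.

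The authors' deposited table, which gives 1 log2 fold change per RefSeq accession, lists 9 of the 10 genes, and no value was used for Acaca. In the authors' deposited table Elovl6 has -0.77, the sixth lowest of 18744 accessions, Scd2 -0.58, Scd1 -0.44, Fads2 -0.32, Elovl5 -0.26 and Fads1 -0.24. The authors' deposited table has Acly at -0.05, Fasn at -0.03 and Elovl1 at -0.06 to -0.07, and marks 0 of the 9 as up-regulated. Its direction is not stated in the file; across 12070 accessions with 1 probe, which are not independent replicates, the values of the authors' deposited table had a Pearson correlation of 0.96 with the log2 ratio of TARBP2 siRNA over control in the series matrix.

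Genes that feed or assist these enzymes were read from a wider list of supply, elongation-partner and further family enzymes, of which 21 of 33 on the array were tested. With siTARBP2-2, 4 of the 21 fell and 2 rose, beside 2.52% lower and 1.75% higher over all genes, with a median log2 change of -0.15. Those that fell were Slc25a1, the mitochondrial citrate carrier (-0.85, SE 0.12; limma, adjusted p = 0.0213), Idh1, a cytosolic source of NADPH (-0.79), and 2 enzymes of the elongation cycle, the reductase Tecr (-0.69) and the dehydratase Hacd4 (-0.68). Mlycd, which breaks malonyl-CoA down, rose by 0.66 and the very long chain elongase Elovl4 by 0.79. With siTARBP2-1, 1 of the 21 fell and 2 rose, beside 3.78% lower and 3.88% higher over all genes, with a median of -0.03; Cyb5b, a cytochrome b5, fell by 0.72 on the log2 scale and Mlycd rose by 0.97 (SE 0.11; limma, adjusted p = 0.00541). Between the siRNAs, Slc25a1 was the 1 gene of this list that differed, higher with siTARBP2-1 by 0.67 (SE 0.15; limma, adjusted p = 0.0436). Over both siRNAs limma called 0 of the 21, with 5 lower and 1 higher at an unadjusted p under 0.05, where the shares over all genes were 6.03% and 6.88%. Without siControl-2, 0 genes of the 4 wider lists together were called with siTARBP2-2, against 8 with all arrays, and 4 against 9 with siTARBP2-1.

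**Figure D4:**
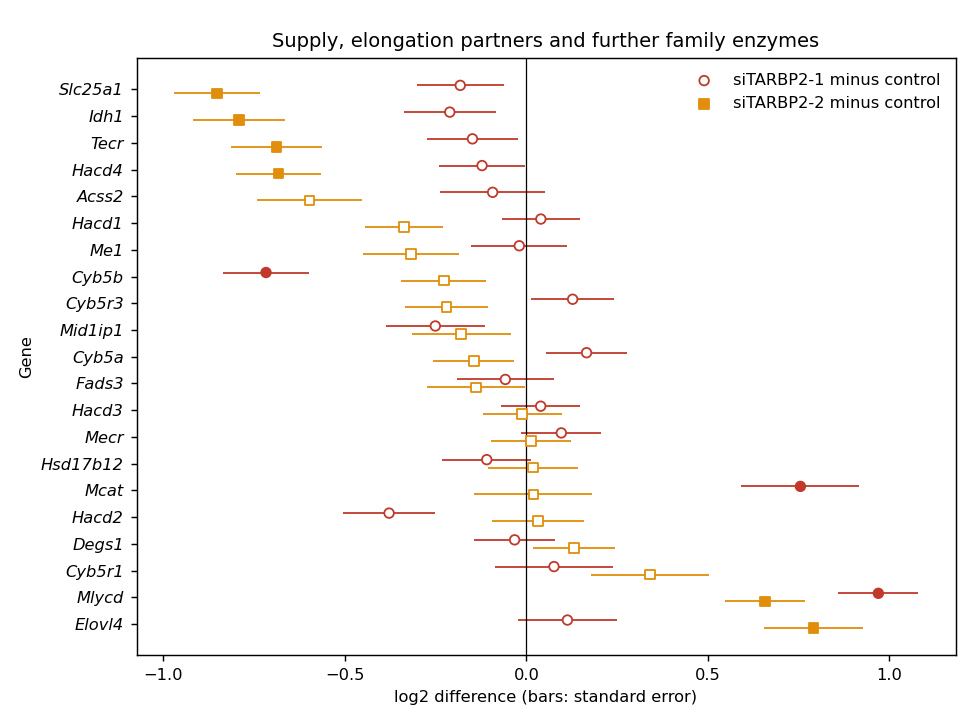
Log2 differences from control of the 21 tested supply, elongation-partner and further family genes (y axis, ordered by the siTARBP2-2 value) with siTARBP2-1 (circles) and siTARBP2-2 (squares); bars are standard errors and filled symbols have an adjusted p under 0.05. Slc25a1, Idh1, Tecr and Hacd4 are filled at -0.68 to -0.85 with siTARBP2-2 and lie at -0.12 to -0.21 with siTARBP2-1.

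Regulators of these genes were read from a further list. Of 24 tested, 0 were called with siTARBP2-2, with 2 lower and 3 higher at an unadjusted p under 0.05, where the shares over all genes were 11.4% and 11.5%. With siTARBP2-1, 1 of the 24 was called higher and 1 lower, near the shares over all genes of 3.88% and 3.78%. Both are E-box binding factors. Usf1 had a log2 change of 0.75 (limma, adjusted p = 0.0134), and did not pass without siControl-2 (0.0501). Usf2 was not well above background on the siTARBP2-1 array, with normalized log2 values of 4.60 there and a mean of 5.37 on the control arrays; control was at least 1.38-fold higher (limma, adjusted p = 0.0216). That call ended with median scaling on kept probes (limma, adjusted p = 0.051), with no filter (0.052) and without siControl-2 (0.0786). Srebf1, the SREBP gene tied most closely to fatty acid synthesis, had log2 signals of 7.26 and 6.83 with the TARBP2 siRNAs, against 6.98, 7.24 and 7.04 on the control arrays, and did not pass (0.17 with siTARBP2-1 and -0.26 with siTARBP2-2). Srebf2, the sterol-directed SREBP gene, had -0.31 with siTARBP2-1 and -0.28 with siTARBP2-2, close to the control SD of 0.308, and did not pass. Scap, the escort protein of the SREBPs, had -0.25 and -0.04. Insig1, which holds that complex in the endoplasmic reticulum and is itself an SREBP target, had log2 signals of 10.33 with siTARBP2-1 and 9.67 with siTARBP2-2, against 10.14, 10.37 and 10.64 on the control arrays; its change of -0.71 with siTARBP2-2 did not pass (limma, adjusted p = 0.0845). These are transcript levels, and SREBP protein cleavage was not measured.

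Genes that use fatty acids were read from lists of activation and oxidation. Among 32 tested genes of fatty acid activation and glycerolipid synthesis, 2 rose above 0.9 on the log2 scale with siTARBP2-1, namely Pcyt1a, the rate-limiting enzyme of phosphatidylcholine synthesis (0.97; limma, adjusted p = 0.0081), and the phosphatidate phosphatase Lpin2 (0.99; adjusted p = 0.00835), and 2 others fell, beside 3.88% higher and 3.78% lower over all genes. With siTARBP2-2 limma called 0 of the 32, with 1 lower and 6 higher at an unadjusted p under 0.05, where the shares over all genes were 11.4% and 11.5%. Pcyt1a was higher with siTARBP2-1 than with siTARBP2-2 by 0.84 (limma, adjusted p = 0.0264). Among 28 tested genes of fatty acid oxidation, limma called 0 with siTARBP2-1, with 2 lower and 0 higher at an unadjusted p under 0.05 (12.3% and 12.4% over all genes), and 2 lower with siTARBP2-2, beside 2.52% over all genes. The median changes of the oxidation list were 0.0089 with siTARBP2-1 and -0.12 with siTARBP2-2.

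**Figure D5:**
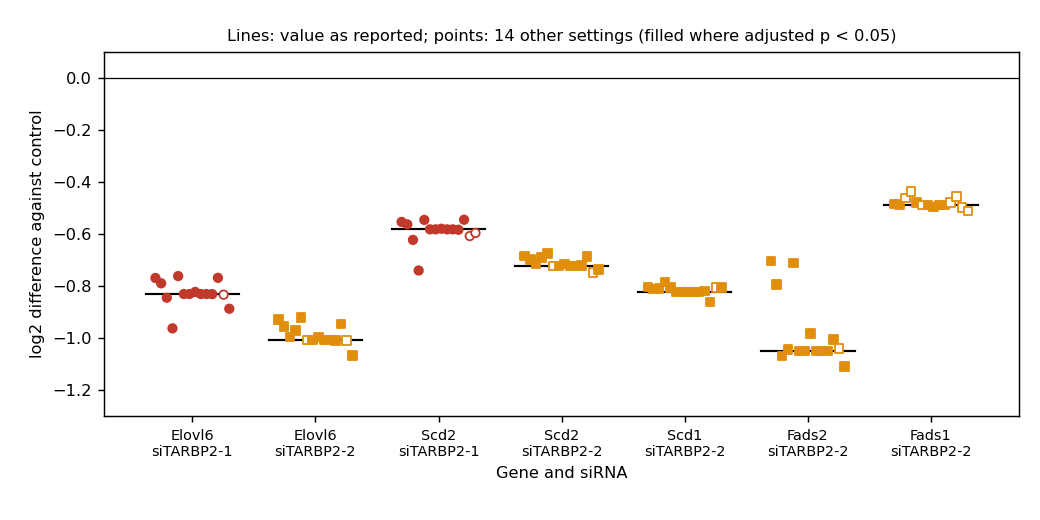
Log2 difference from control (y axis) of the called genes and Fads1 under 14 other processing settings (points, filled where the adjusted p was under 0.05), with the reported value as a line. Elovl6 stayed between -0.76 and -0.96 with siTARBP2-1 and between -0.92 and -1.07 with siTARBP2-2, and Fads2 spread widest with siTARBP2-2, at -0.70 to -1.11.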

How the data were processed

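The authors deposited non-normalized signal intensity for 25697 probes with a detection p-value per array, a series matrix of quantile normalized intensities (the normalization seen from the deposited values), and a table of log2 fold changes with a 0 or 1 score per RefSeq accession. Per the submitters' processing notes the tool was lumi; its version and the build are not stated. In the deposited file the detection p-values given for siTARBP2-2 did not follow its signals (Spearman 0.000598, against -0.961 to -0.967 elsewhere); they were replaced by the mean p-value at the same signal rank on the other 4 arrays.

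Signals were normalized with neqc of limma 3.58.1 (R 4.3.3; negative controls inferred from detection p-values, offset 16). Probes detected (p under 0.05) on at least 2 arrays were tested (13123 probes, 8927 genes, each represented by its brightest kept probe) by lmFit and eBayes (two-sided; p-values adjusted by Benjamini-Hochberg). With 1 array per siRNA, the spread in the fits of each siRNA comes from the controls and is taken to hold for that array; these fits have 2 residual degrees of freedom. For a bound, each array's dim value is its lowest detected signal or the probe's own, whichever is higher. The platform annotation gave 23978 probes 1 symbol, 0 several and 1719 none. The number of arrays limits the precision. The fits were tested on simulated data with the same change on both TARBP2 siRNA arrays and the control spread on every array. That simulation cannot show how a deviating single array or a difference between the siRNAs affects the fits. The genes and lists were chosen with earlier results of these data known. Outside the 10 genes, the text names Tarbp2, Srebf1, Srebf2, Scap, Insig1 and, per comparison, at most 6 called genes of the wider lists by the smallest p. Same-numbered arrays did not deviate together (correlations of -0.0485 and -0.0266).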

Additional observations from a re-analysis of the deposited data

Results flagged for a closer look

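In 2 of the 10 genes limma's test of siTARBP2-1 minus siTARBP2-2 passed; it sets 1 array against 1 array with the spread of the control arrays, so siRNA and array cannot be told apart. Scd1 was higher with siTARBP2-1 than with siTARBP2-2 by 0.76 on the log2 scale (limma, adjusted p = 0.0254), and Fads2 by 0.68 (adjusted p = 0.049).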

How the results depend on the processing

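Over 14 other settings for each siRNA and 16 for both, the changes of Elovl6, Scd2, Scd1 and Fads2 against control kept their direction. With siTARBP2-2 the 10 genes gave 4 calls, 2 with no filter on dim probes, and 0 to 4 when 1 control array was left out; with siTARBP2-1 they gave 2 calls, and 0 to 2 when 1 control array was left out. The 0 came without siControl-2 each time. Over both siRNAs they gave 0 calls, and 0 when 1 control array was left out. Leaving out 1 TARBP2 siRNA array turns this comparison into that of the other siRNA alone, so it is not counted here. Between the siRNAs they gave 2 calls, 4 with no background correction or an intensity trend, 1 with no filter, 0 with median scaling over all probes (chosen after seeing the data) and 0 to 2 when 1 control array was left out.

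The 4 wider lists gave 9 calls with siTARBP2-1, 14 with no background correction or the series matrix, 15 with an offset of 50 or a trend, 5 with no filter, and 4 to 11 when 1 control array was left out. With siTARBP2-2 they gave 8 calls, 14 with no background correction, the series matrix or a trend, 13 with an offset of 50, 0 with no filter, and 0 to 9 when 1 control array was left out. Between the siRNAs they gave 3 calls, 20 with no background correction, 19 with an offset of 50, 18 with the series matrix or a trend, 9 for probes detected on all arrays, 6 with all-probe median scaling, 5 with the deposited detection column or the mean of a gene's probes, 0 with no filter, and 0 to 10 when 1 control array was left out. Over both siRNAs they gave 0 calls, and 0 when 1 control array was left out. Calls over all genes moved too: 683 with siTARBP2-1 (241 to 1221), 381 with siTARBP2-2 (29 to 955) and 630 between the siRNAs (239 to 1261). Over both siRNAs 1 gene was called, and 0 to 11 in the settings that kept both TARBP2 siRNA arrays. The causes of these shifts were not tested.

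Small changes turned sign. All-probe median scaling moved the median of all genes by -0.11 with siTARBP2-1 and by -0.13 between the siRNAs. Under it, with siTARBP2-1 Acly was -0.12 and Fads1 -0.090, with siTARBP2-2 Elovl1 was 0.031, and between the siRNAs the median of the 10 genes was -0.038, Acly -0.027, Scd2 -0.049 and Elovl5 -0.20. Median scaling on kept probes gave Elovl1 0.0061 with siTARBP2-2 and, between the siRNAs, Fasn 0.066 and Elovl5 -0.059; the mean of its probes gave Elovl1 0.019 there. Over both siRNAs, leaving out 1 control array gave ranges across 0 for Elovl1 (-0.15 to 0.026) and Srebf1 (-0.098 to 0.0285). Leaving out 1 TARBP2 siRNA array leaves the other siRNA alone, so the next values are changes of single siRNAs. Acaca was 0.068 with siTARBP2-2 alone and -0.31 with siTARBP2-1 alone. In the same order Acly was -0.13 and 0.029, Fads1 -0.48 and 0.0057, and Srebf1 -0.26 and 0.17. With siTARBP2-1, leaving out 1 array gave Acly -0.0019 to 0.042, Fads1 -0.013 to 0.038 and Insig1 -0.17 to 0.074. With siTARBP2-2 it gave Elovl1 -0.085 to 0.086.

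The replicate numbers of the TARBP2 siRNA and control arrays do not pair the samples; with the replicate number as a block, limma called 0 of the 10 genes over both siRNAs, and 0 of all genes. No paired analysis was possible for single siRNAs because each has 1 array. Slide as a block was not run, since the files give no slide, and Fasn has no value among probes detected on all arrays. Dim probes (Fasn, Fads2) are limited by signal over background.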
